A study of Mus musculus with 6 samples.

Results

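The 10 precursors described here are mmu-mir-673, mmu-mir-493, mmu-mir-337, mmu-mir-540, mmu-mir-665, mmu-mir-431, mmu-mir-433, mmu-mir-127, mmu-mir-434 and mmu-mir-136 (written below without the species prefix), the miRNA genes that follow Meg3 in the imprinted Dlk1-Dio3 region of mouse chromosome 12. They were chosen by name from the 855 miRNA precursors of the deposited small RNA table, and all 10 were found. The small RNA libraries came from the whole retina of mice aged 4 weeks on a mixed C57BL/6J - SJL background. Mice of both groups carried floxed Dicer1 alleles (Dicerfl/fl). The cKO group also carried the iCre75 transgene, a Cre recombinase under the rod opsin promoter that deletes Dicer1 in rod photoreceptors, and the control group were littermates without it. There were 3 libraries per group, each from a pool of 6 retinas, and totals recovered from the values ran from 5480940 to 7478237 reads. The series' design text calls them biological replicates, and nothing says which mice went into which pool, so the p-values measure the spread between these pools. Dicer1 mRNA, the check of the deletion, was not analysed here. Other retinal cells keep their Dicer1, and a whole retina mixes them with rods: fewer cells of a type and less RNA per cell cannot be told apart.

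Genes of the Dlk1-Dio3 region are read from a single parental chromosome. The maternal copy gives the long noncoding RNAs Meg3, Rian and Mirg, the transcript antisense to Rtl1 and the miRNAs, while the paternal copy gives the proteins Dlk1, Rtl1 and Dio3. The miRNAs are thought to be cut from a long maternal transcript first by Drosha and then by Dicer, and many of them are known from brain and other neural tissue. Rtl1, a gene derived from a retrotransposon, is known from placenta and muscle, and the miRNAs read from its opposite strand are known to direct cleavage of its mRNA.

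The 10 hairpins lie on the plus strand within 23.4 kb. On GRCm38.p6, the build of the RefSeq sequences used here, mir-673 opens the series at chr12:109571990-109572080 and mir-136 closes it at chr12:109595327-109595388. None of the 10 lies inside the annotated Meg3 gene, so the precursors follow Meg3 and are not part of its annotated transcripts. In GENCODE M21 (GRCm38), 5 of them (mir-431, mir-433, mir-127, mir-434 and mir-136) lie within the coding exon of Rtl1 on its opposite strand. The other 5 (mir-673, mir-493, mir-337, mir-540 and mir-665) lie between the Meg3 and Rtl1 genes of that annotation. The RefSeq Rtl1 gene has a longer span that holds all 10.

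The mature sequences below are those of the 3 most abundant members and of mir-431, the member with the next highest fold change after mir-127. They are RefSeq sequences (GRCm38.p6), written 5′ to 3′, with the seed (bases 2 to 8) in capitals.
miR-127-5p: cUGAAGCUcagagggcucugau
miR-127-3p: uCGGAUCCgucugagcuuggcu
miR-434-5p: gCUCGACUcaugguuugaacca
miR-434-3p: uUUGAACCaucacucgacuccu
miR-136-5p: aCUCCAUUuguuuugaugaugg
miR-136-3p: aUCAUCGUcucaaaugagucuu
miR-431-5p: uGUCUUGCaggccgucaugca
miR-431-3p: cAGGUCGUcuugcagggcuucu
The deposited values are per precursor, so the table does not say which arm the reads came from. No seed was shared between members among the 20 mature arms. Only miR-540-3p and miR-673-5p shared their seed with any other mouse miRNA in the RefSeq table, each with 1 (miR-6915-5p and miR-6985-3p).

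The 5 precursors antisense to Rtl1 had 10 mature arms, and the full reverse complement of each was found in the Rtl1 transcript of GENCODE M21. None of the 10 arms of the other 5 precursors had one. The most abundant member, at chr12:109592846-109592915, shows the pairing: the Rtl1 stretch opposite miR-127-3p is given on the mRNA strand.
Rtl1 site of miR-127-3p: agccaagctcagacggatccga
Rtl1 mRNA itself was not analysed here.

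For mir-136 the table holds a second row of the same locus. The precursor mir-3071 is annotated on the opposite strand at chr12:109595318-109595397, and all 62 bases of the mir-136 hairpin, in capitals below, are complementary to it.
mir-136 hairpin: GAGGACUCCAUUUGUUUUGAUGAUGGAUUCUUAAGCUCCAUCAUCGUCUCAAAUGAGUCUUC
mir-3071 hairpin: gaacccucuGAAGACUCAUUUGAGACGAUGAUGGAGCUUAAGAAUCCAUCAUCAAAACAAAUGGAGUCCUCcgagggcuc
Reads recovered for mir-136 were 3334, 3349 and 3184 in control 1 to 3 and 6060, 5865 and 4231 in cKO 1 to 3. Those for mir-3071 were 3338, 3357 and 3192, and then 6067, 5876 and 4238. The pair differed by at most 11 reads in any library. In the same way mir-337 and its antisense partner mir-3544 differed by at most 4 reads. The sources used here do not say whether the authors' counting used the strand, and reads from both strands cannot be told apart in these rows. The values of mir-136 and mir-337 are therefore those of a locus, and mir-3071 and mir-3544 are not further measurements. No member shared a stretch of 20 bases with at most 1 mismatch with the same strand of another precursor in the table.

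The start site upstream of the series is that of Meg3. Its promoter on the plus strand (250 bases before and 50 after the RefSeq start, chr12:109540746-109541045) is shown because all 10 precursors lie downstream of it; cAMP response element matches are in capitals.
Meg3 promoter: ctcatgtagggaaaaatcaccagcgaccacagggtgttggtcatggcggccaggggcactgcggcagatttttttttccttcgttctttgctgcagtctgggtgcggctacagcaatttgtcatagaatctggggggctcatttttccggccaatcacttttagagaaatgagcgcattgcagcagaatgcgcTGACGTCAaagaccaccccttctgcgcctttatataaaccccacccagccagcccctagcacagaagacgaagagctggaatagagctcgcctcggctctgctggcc
Both strands were searched for TGACGTCA, a cAMP response element, which matched once (1.79% of 32851 promoters of the same length hold it). The shorter TGACG, which also matched, lies within the same site on both strands (20.8% of promoters hold it). The TATA box TATAAA matched at 2 overlapping places (13.6% of promoters), and the GC box GGGCGG was not among these letters (35.7% of promoters). These are letter matches only, and no promoter activity was measured here.

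Levels ranged over more than 4 orders of magnitude within the 10, and the 3 abundant precursors were all antisense to Rtl1. The values are RPKM as deposited, that is, reads scaled to the length of the precursor and to the reads of the library. The precursor mir-127 stood at 122502, 172679 and 182585 RPKM in control 1 to 3, and at 407071, 371834 and 393525 RPKM in cKO 1 to 3. Every cKO library lay above every control library, and control 1 was the lowest control. Its rank by mean RPKM was 14 among all precursors with reads. It took 1.11% ± 0.225 of library reads in the controls and 2.74% ± 0.124 in the cKO libraries (n = 3 libraries each, SD).

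The next in level was mir-434, whose hairpin lies next to mir-127. It stood at 15240, 14774 and 15507 RPKM in control 1 to 3 and at 26125, 33172 and 31381 RPKM in cKO 1 to 3. The controls lay close together and the cKO libraries were all above them, with cKO 1 the lowest of the latter. The third was mir-136, with 7191, 7835 and 7273 RPKM in the controls and 14113, 13681 and 12451 RPKM in cKO 1 to 3. Its groups did not overlap either. These 3 precursors together made up 99.3% ± 0.166 of the RPKM of the 10 in the controls and 99.4% ± 0.0204 in the cKO libraries (n = 3 libraries each, SD).

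**Figure D1:**
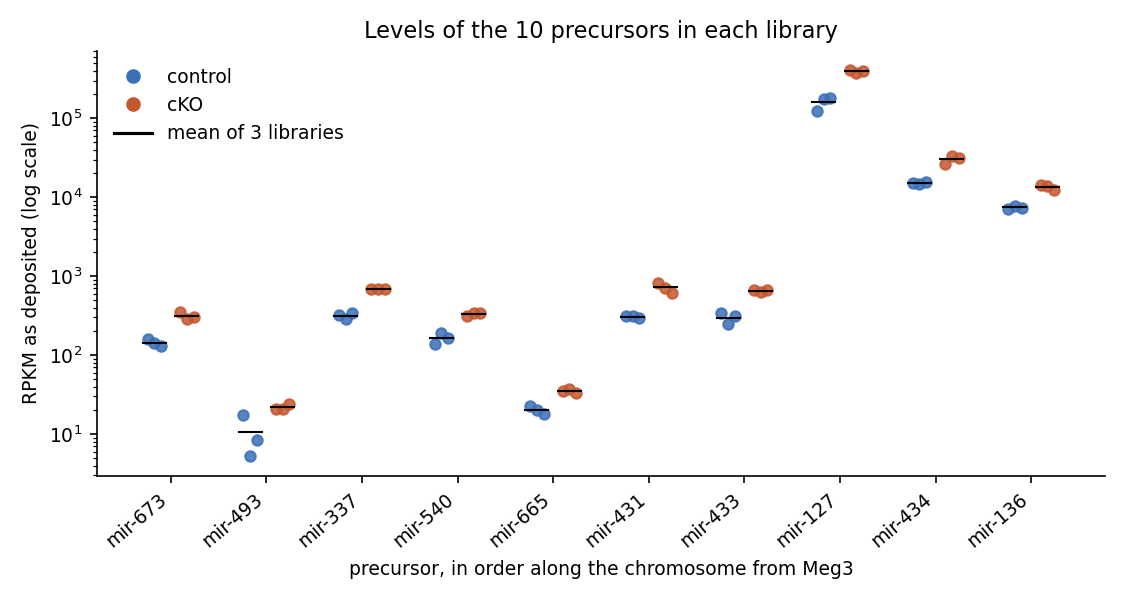
RPKM of each of the 10 precursors (log axis) in 3 control (blue) and 3 cKO (orange) libraries, in order from the Meg3 end; black lines are group means. The cKO points lie above the control points for each precursor, and mir-127 lies about an order of magnitude above the next, mir-434.

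The other 7 precursors were far less abundant. Among them mir-431 and mir-433, also antisense to Rtl1, and mir-337, on its Meg3 side, formed a middle group. The precursor mir-431 stood at 312, 314 and 296 RPKM in control 1 to 3 and at 823, 714 and 622 RPKM in cKO 1 to 3. The values of mir-433 were 340, 248 and 310 RPKM in the controls and 670, 633 and 662 RPKM in cKO 1 to 3. Those of mir-337 were 324, 286 and 337 RPKM in the controls and 695, 684 and 694 RPKM in cKO 1 to 3. In control retina the ranges of these 3 precursors overlapped, so their order there is not resolved. In cKO retina mir-337 lay above mir-433 in RPKM in every library, and mir-431 spanned both. Recovered reads, which are not divided by precursor length, went the other way for mir-337 and mir-433. They were 467, 459 and 369 for mir-337 and 575, 543 and 450 for mir-433 in cKO 1 to 3. The order of mir-337 and mir-433 thus depended on the length scaling. In each of the 3 the cKO libraries were all above the controls.

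Lower still were mir-540, with 140, 191 and 165 RPKM in the controls and 312, 345 and 343 RPKM in cKO 1 to 3, and mir-673, the member nearest to Meg3. The latter stood at 160, 143 and 129 RPKM in the controls and at 351, 288 and 309 RPKM in cKO 1 to 3. These neighbours in level overlapped in RPKM in both groups, while for either of them all cKO libraries were above all controls. In recovered reads mir-673 lay above mir-540 within each library.

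At the bottom, mir-665 stood at 22.8, 20.1 and 18.1 RPKM in the controls and 35.3, 36.9 and 33.0 RPKM in cKO 1 to 3. These values rest on 16, 13 and 12 reads and on 23, 24 and 17 reads. The precursor mir-493 stood at 17.7, 5.24 and 8.53 RPKM in the controls and 20.9, 20.9 and 24.2 RPKM in cKO 1 to 3. It rests on 11, 3 and 5 reads and on 12, 12 and 11 reads. For the 3 reads in control 2 the exact Poisson 95% interval runs from 0.619 to 8.77 reads, and for the 11 reads in control 1 from 5.49 to 19.7. Because amplified reads carry no molecular identifiers and are not independent molecules, such intervals hold the counting error alone. Although the groups did not overlap for either precursor, the counting intervals of single libraries did.

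The comparison of cKO with control retina addressed how miRNA levels of the whole retina differ once rods lack Dicer1. As deposited, all 10 precursors rose in cKO retina (limma, Benjamini-Hochberg adjusted p below 0.05 over 461 tested precursors). Over all tested precursors 320 rose, or 69.4%, and 8 fell, or 1.74%. In all 10 the cKO libraries lay above the control libraries, which held for 71.6% of all tested precursors. The median log2 fold change of the 10 was 1.13, against 0.74 over all tested precursors. Most precursors were thus higher in cKO retina on this scale, and a count of rises has to be read against that background. Each RPKM is a share of its library: the photoreceptor miRNA mir-182, which fell (log2 -0.86; adjusted p = 0.00024), took 54.7% ± 2.34 of library reads in the controls and 30.2% ± 3.22 in the cKO libraries (n = 3 libraries each, SD). The shares are not parts of a fixed total: reads summed over all precursors came to between 1.55 and 1.56 times the library total in the 3 controls and between 1.77 and 1.86 times in the 3 cKO libraries. The part of these differences in the values of the 10 precursors was not tested.

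Fold changes of the 10 ran from 1.70 to 2.49 on the log2(RPKM + 1) scale as deposited. The highest was that of mir-127, 2.49-fold (log2 1.32, SE 0.15; adjusted p = 0.00024), which ranked 22 of 461 by fold change. The precursor mir-431 rose 2.32-fold (log2 1.22, SE 0.15; adjusted p = 0.00031). Fold changes of mir-433, mir-337 and mir-673 were alike, at 2.20-, 2.19- and 2.18-fold. Next came mir-540 at 2.03-fold and mir-434 at 1.98-fold. The least of the abundant members was mir-136, at 1.80-fold (log2 0.85, SE 0.12; adjusted p = 0.0005), which ranked 178.

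The calls of the 2 scarce precursors were weak. The precursor mir-493 rose 2.21-fold (log2 1.15, 95% interval 0.14 to 2.15; adjusted p = 0.043) and mir-665 rose 1.70-fold (log2 0.76, 95% interval 0.16 to 1.37; adjusted p = 0.028). Both calls ended on leaving out any library but control 1, with adjusted p from 0.066 to 0.16 for mir-493 and from 0.055 to 0.11 for mir-665. Without control 2 the log2 fold change of mir-493 was 0.78, and without control 1 it was 1.57. For the other 8 precursors each call held without any single library.

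The 5 precursors antisense to Rtl1 and the 5 between Meg3 and Rtl1 differed widely in level, and all of them rose. Summed over the 5 antisense precursors, control retina held 182468 ± 32341 RPKM and cKO retina 435826 ± 14589 RPKM (n = 3 libraries each, SD). Summed over the 5 between Meg3 and Rtl1 the values were 656 ± 9.90 RPKM and 1398 ± 20.2 RPKM. The median log2 fold change was 1.14 for the antisense precursors and 1.12 for those between Meg3 and Rtl1, and the difference was not tested. Within the antisense precursors fold changes reached from the highest of the 10 (mir-127) down to the ninth (mir-136).

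**Figure D2:**
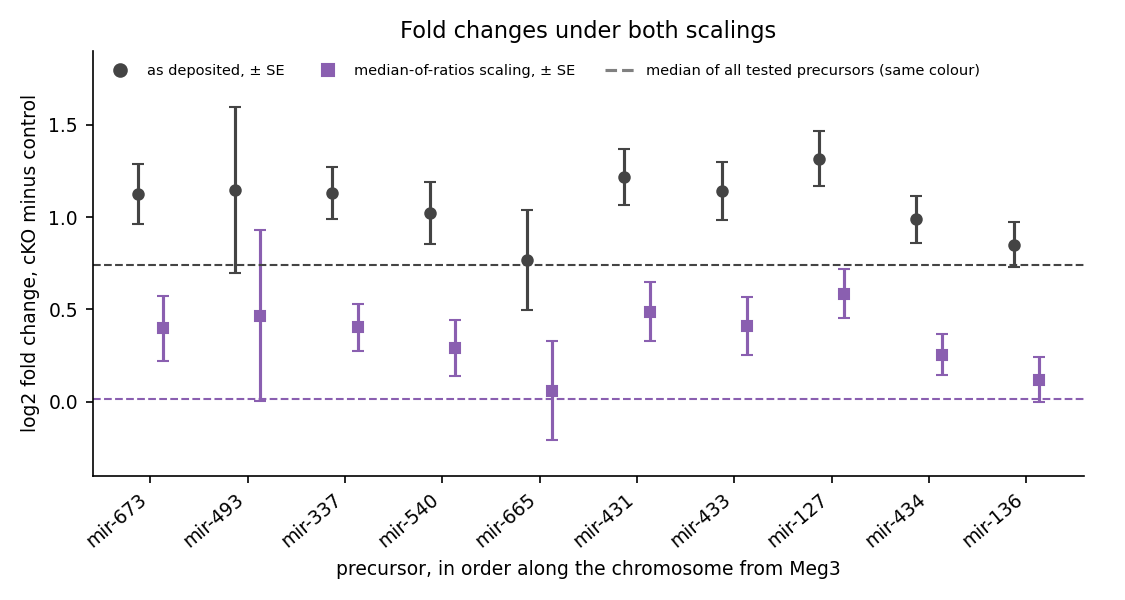
Log2 fold changes, cKO minus control, with standard errors, as deposited (grey circles) and after median-of-ratios scaling (purple squares); dashed lines mark the median of all 461 tested precursors on each scale, 0.74 and 0.02. All 10 points lie above the median on both scales, but mir-136, mir-665 and mir-493 do so by less than their standard errors. The scatter between precursors is similar in size to the errors.

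Scaling decided how many of the 10 passed. Median-of-ratios scaling sets the typical precursor equal between libraries, and it moved the median over all tested precursors from 0.74 to 0.02. All 10 precursors had a positive log2 fold change on this scale, from 0.06 to 0.58 with a median of 0.40. So had 240 of the 461 tested precursors. Of the 10, only mir-127 passed. It rose by 0.58 (SE 0.13; limma adjusted p = 0.019), where 2.17% of all tested precursors rose and 9.98% fell. Each library left out in turn on this scale gave mir-127 a log2 fold change of 0.46 to 0.66. Its call ended without cKO 1 (adjusted p = 0.056) and without cKO 3 (adjusted p = 0.059).

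The values behind this are the RPKM divided by each library's scaling factor. Scaled in this way, mir-127 stood at 165298, 226396 and 216369 in control 1 to 3 and at 327280, 275616 and 302362 in cKO 1 to 3. The groups stayed apart. Scaled values of mir-136 were 9703, 10272 and 8618 in the controls and 11347, 10141 and 9567 in cKO 1 to 3, so that the groups overlapped. On this scale 6 of the 10 had all cKO libraries above all controls (mir-127, mir-431, mir-433, mir-434, mir-337 and mir-540), against 15.2% of all tested precursors.

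Next in size after mir-127 on this scale were mir-431 at 0.49 (SE 0.16; adjusted p = 0.087) and mir-493 at 0.47 (SE 0.46; adjusted p = 0.60). The precursors mir-433, mir-337 and mir-673 stood at 0.41, 0.40 and 0.40 (adjusted p = 0.14, 0.081 and 0.19), and mir-540 and mir-434 at 0.29 and 0.26 (adjusted p = 0.24 and 0.19). The lowest were mir-136 at 0.12 (SE 0.12; adjusted p = 0.61) and mir-665 at 0.06 (SE 0.27; adjusted p = 0.90). With library totals taken without mir-182 reads, mir-127, mir-431 and mir-337 rose, at 0.69, 0.59 and 0.51, where 4.34% of all tested precursors rose and 7.81% fell. With totals taken without the 10 most abundant precursors 7 of the 10 rose, all but mir-136, mir-665 and mir-493, where 12.4% of all tested rose and 6.29% fell. Under quantile normalization, which keeps only ranks, mir-127 and mir-434 rose, at 0.85 and 0.54, where 2.6% of all tested rose and 6.29% fell.

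**Figure D3:**
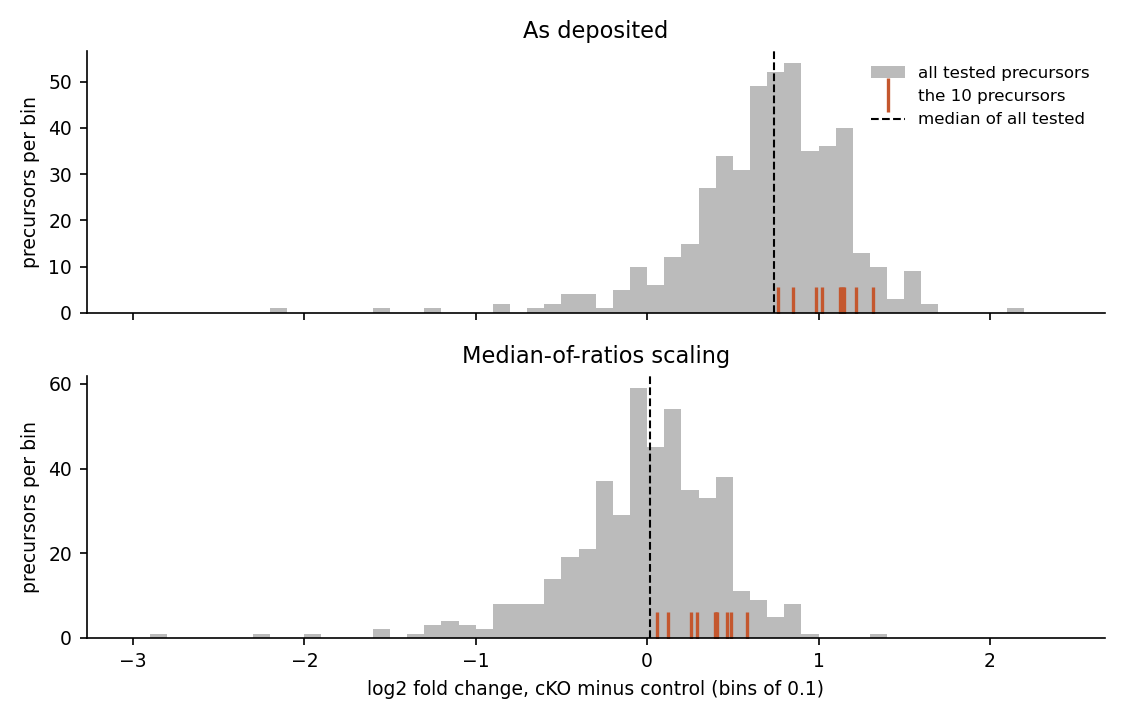
Histograms of the log2 fold change over 461 tested precursors as deposited (top) and after median-of-ratios scaling (bottom), with the 10 precursors as orange ticks and the median of all tested as a dashed line. The ticks run from 0.76 to 1.32 in the top panel and from 0.06 to 0.58 in the bottom panel, on the upper side of the median in both.

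Together the 10 precursors took 0.940% ± 0.163 of summed RPKM in the controls and 1.94% ± 0.109 in the cKO libraries (n = 3 libraries each, SD). The libraries held 0.755%, 1.01% and 1.06% in control 1 to 3 and 2.06%, 1.84% and 1.92% in cKO 1 to 3. The groups did not overlap (two-sided exact permutation over libraries, p = 0.1, below which this design cannot go). Once mir-182 was left out of the sum, the shares were 1.499% ± 0.221 and 2.37% ± 0.200 (n = 3 libraries each, SD; exact permutation p = 0.1), a 1.58-fold difference in place of 2.07-fold. The size of the difference thus depended on whether mir-182 was in the sum.

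Ratios within a library do not depend on its scaling. The sum of the other 9 precursors, most of which is mir-434 and mir-136, varied less between control libraries than mir-127 did. In the cKO libraries mir-127 varied less than that sum, relative to its mean. The values there were 390810 ± 17775 RPKM for mir-127 and 46413 ± 3216 RPKM for the sum (n = 3 libraries, SD). Single members of the 9 varied more than their sum: the coefficient of variation over the controls was 61.6% for mir-493, 15.6% for mir-433 and 15.4% for mir-540, against 20.2% for mir-127. The summed RPKM of the 9 were 23746, 23816 and 24043 in control 1 to 3 and 43146, 49576 and 46519 in cKO 1 to 3. The log2 ratio of mir-127 to that sum was 2.37, 2.86 and 2.92 in control 1 to 3 and 3.24, 2.91 and 3.08 in cKO 1 to 3. The difference of 0.36 was within a range where the groups overlapped (exact two-sided permutation p = 0.2, adjusted p = 0.5 over the 10 such ratios). Without control 1 it was 0.18, so that library decided much of its size.

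Of the same ratio for each of the 10 members, only that of mir-136 had groups that did not overlap. Its log2 ratio to the other 9 was -4.27, -4.59 and -4.78 in control 1 to 3 and -4.95, -4.90 and -5.10 in cKO 1 to 3, lower by 0.44 on average (by exact permutation, two-sided, p = 0.1; adjusted p = 0.5). That sum is mostly mir-127. No difference in the makeup of the 10 between genotypes passed the test, which cannot reach 0.05 at this number of libraries. In the other 8 members the difference in the ratio ran from -0.48 for mir-665 to -0.03 for mir-493, with overlapping groups.

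**Figure D4:**
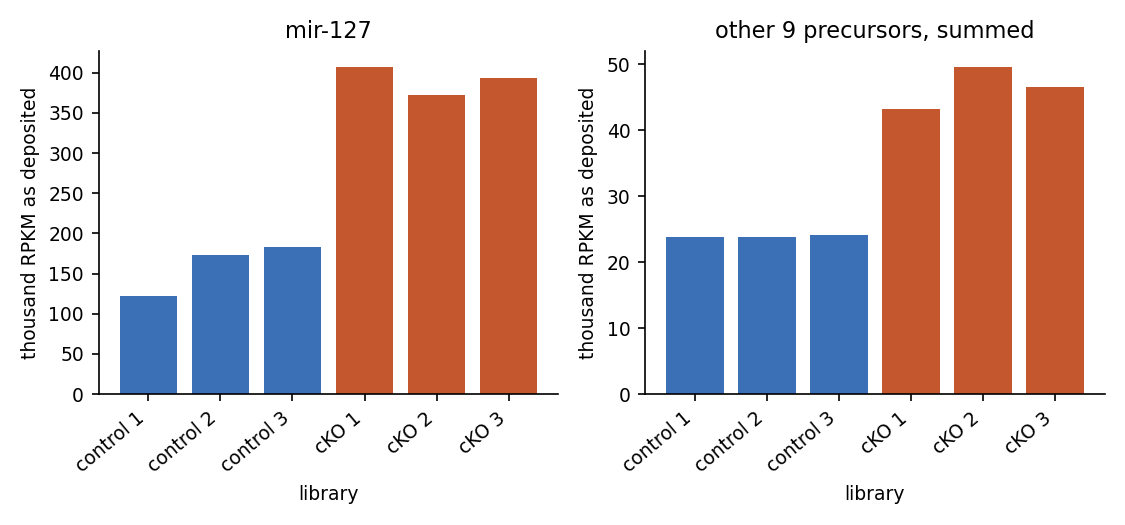
RPKM as deposited of mir-127 (left) and of the other 9 precursors summed (right) in each control (blue) and cKO (orange) library. The lowest bar on the left is control 1, at 122502 RPKM, whereas on the right the 3 controls lie between 23746 and 24043 RPKM.

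The rest of the imprinted region was described from fixed lists of names. Of 10 further names near Meg3, the Rtl1 antisense transcript and Rian, a host of small nucleolar RNAs, 7 had reads and 4 were tested. All 4 rose as deposited, with a median log2 fold change of 1.10, where 69.4% of all tested precursors rose, with a median of 0.74. The 4 were mir-370, mir-341, mir-770 and mir-3071, the last of which repeats the reads of mir-136. The precursor mir-770, inside Meg3, stood at 50.4 ± 7.58 RPKM in the controls and 111 ± 5.70 RPKM in the cKO libraries (n = 3 libraries each, SD), a 2.18-fold rise (adjusted p = 0.001). In Rian, mir-341 rose 2.09-fold (adjusted p = 0.00057) and mir-370 rose 2.20-fold (adjusted p = 0.00064). None of these 4 passed after median-of-ratios scaling, where they stood at 0.41 (mir-370), 0.40 (mir-770), 0.33 (mir-341) and 0.12 (mir-3071). On that scale 2.17% of all tested precursors rose.

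Among the 34 tested precursors of the distal cluster from mir-379 to mir-410, with mir-3072, 32 rose and none fell as deposited. Their median log2 fold change was 1.05, where 69.4% of all tested precursors rose, with a median of 0.74. After median-of-ratios scaling 2 rose, mir-541 and mir-667, where 2.17% of all tested precursors rose. On that scale the median of the 34 was 0.33, and 33 of them were positive. The 4 most abundant distal precursors were mir-411, mir-410, mir-541 and mir-381, whose control means lay between 3646 and 4912 RPKM, below mir-136 at 7433 RPKM. They rose 2.14-, 2.14-, 2.89- and 2.03-fold as deposited. The medians of the proximal 10 and the distal cluster, 1.13 and 1.05, were not tested against each other.

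**Figure D5:**
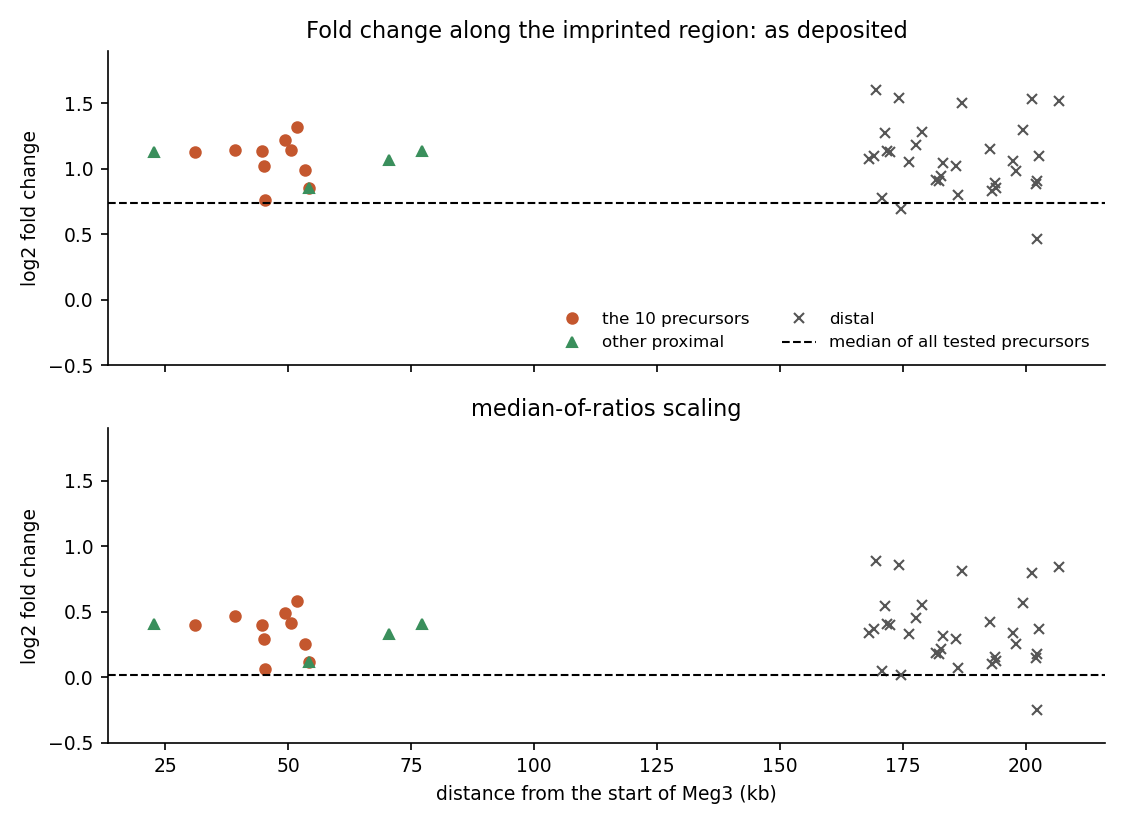
Log2 fold change against distance from the start of Meg3 (kb) for tested precursors of the region, as deposited (top) and after median-of-ratios scaling (bottom): the 10 precursors (circles), other proximal (triangles) and distal ones (crosses; mir-666 and mir-544, which have no RefSeq position here, are left out), with the median of all tested precursors dashed. The 10 circles, from mir-673 at 31.0 kb to mir-136 at 54.3 kb, lie within the spread of the distal crosses.

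Cell type markers differed between the same control and cKO libraries. Their counts have to be read against all tested precursors, of which 69.4% rose and 1.74% fell as deposited, with a median log2 of 0.74. The photoreceptor markers mir-182, mir-96 and mir-183 fell in 2 of 3 as deposited, and their summed level was 7568213 to 7894241 RPKM in the controls and 4037712 to 4911543 RPKM in cKO retina. Markers of the inner retina, the 2 copies of mir-181a (mir-181a-1 and mir-181a-2), both rose, by log2 0.71 each, which is below that median. Their sums were 4919232 to 5321549 RPKM in control and 8053701 to 8723185 RPKM in cKO retina. The list of neuronal markers held 3 copies of mir-124 and 3 copies of mir-9, which is also a progenitor and glial miRNA. The copies of mir-9 rose (log2 0.72 for each, also below that median). Those of mir-124 did not pass and stood at -0.07 each (adjusted p from 0.677 to 0.683). The 6 together had sums of 397054 to 442620 RPKM against 478848 to 546754 RPKM. Pigment epithelium markers (mir-204 and mir-211) rose in 2 of 2, endothelial and mural markers in 3 of 3, red cell markers in 2 of 3 and leukocyte markers in 2 of 2. Muscle markers rose in 2 of 4, the 2 copies of mir-133a, while those of mir-1a did not pass. Copies of the same miRNA had nearly the same fold changes here and are not independent markers. The epithelial, lens and cornea markers passed in 0 of 3, but the pools differed widely in them, with sums of 2499 to 54376 RPKM in the controls and 25397 to 63458 RPKM in the cKO libraries. Among these mir-184 had a log2 fold change of 2.12 (SE 0.88; adjusted p = 0.0516), the highest of all tested precursors. No marker in the table was listed at 0 in every library. After median-of-ratios scaling all 3 photoreceptor markers and the 3 copies of mir-124 fell (the latter by 0.80 each), and 1 endothelial or mural marker rose. No other marker passed on this scale, where the copies of mir-9 stood at -0.01 and those of mir-181a at -0.02. The part of these shifts in the values of the 10 precursors was not tested.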

How the data were processed

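Small RNA libraries of 6 retinal pools (3 control, 3 cKO) were compared. Per the labels' protocols, RNA of 6 retinas went into each, with 11 rounds of PCR, gel selection for miRNA-sized inserts and 1 shared sequencing run. The authors deposited RPKM per precursor for 855 precursors, of which 203 were at 0 throughout. Bowtie and mm9 are named, per the submitters' processing notes; the sources used here do not give its version, the annotation, strand use or the treatment of multiply matching reads. Multiplying RPKM by precursor length recovered whole reads (within 0.01) in 100.0% of 2388 values and thus the library totals, with RefSeq lengths for 639 precursors and the shortest fitting length for 182.

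The main test was limma 3.58.1 (R 4.3.3; trended eBayes, two-sided) of cKO against control on log2(RPKM + 1). It took in the 461 precursors whose mean reached 10 RPKM, with Benjamini-Hochberg adjustment at 0.05 over all of them. This scale understates changes of low precursors. Shares and ratios were tested by exact permutation over the 6 libraries (scipy 1.17.1). Figures used matplotlib 3.10.9. The fit was checked on simulated data, where it recovered 55.2% of 1.5-fold, 91% of 2-fold and 100% of 4-fold changes, with 2.96% of calls false. Rises and falls were equally likely in that simulation, so it does not bear on the choice of scaling. Its precursors were drawn independently, with a fixed spread between libraries that was not estimated from these data. The rates of recovery and of false calls therefore need not hold for these libraries. Alternatives covered pseudocount, filter, scaling, variance model, library weights, recovered reads (limma voom), replicate number as a block, and leaving out each library. Named were the 10 precursors, the 4 most abundant of each neighbouring list, the 5 precursors most alike in pattern, mir-182 and cell type markers; mir-667, mir-3544 and mir-3070a were named after their values were seen. The members and lists were chosen with earlier results of these data known.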

Additional observations from a re-analysis of the deposited data

How the results depend on the processing

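Scaling was the choice that changed the counts most. Over all tested precursors (320 rose and 8 fell as deposited), median-of-ratios scaling gave 10 and 46, quantile normalization 12 and 29, totals without the 10 most abundant precursors 57 and 29, and totals without mir-182 20 and 36. Of the 10 members (10 rose), 1, 2, 7 and 3 rose in that order; of the 4 other proximal precursors 0, 0, 1 and 0; and of the 34 distal precursors (32 rose) 2, 2, 14 and 5. No member fell under any setting. The number of all precursors that fell was 4 with a filter at 100 RPKM and 14 with library weights. Without a filter 1 other proximal precursor fell, mir-3070a, with 1 or 2 reads in each control and 0 in each cKO library. The summed share of the members differed by 1.00 points of summed RPKM, and by 1.81 points as a share of library reads. Pseudocounts of 0.5 and 10, voom on recovered reads, library weights, eBayes without trend and no filter left all 10 members past the threshold. A filter at 100 RPKM removed mir-665 and mir-493.

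Leaving out each library in turn gave 252 to 322 rises and 4 to 12 falls over all precursors (12 without control 1, 4 without control 2 or control 3, 5 without cKO 2 or cKO 3), 8 to 10 members that rose, 4 other proximal and 30 to 32 distal precursors. The difference in summed share ran from 0.911 to 1.06 points and that in the log2 ratio of mir-127 to the other members from 0.184 to 0.463.

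With the replicate number as a block all 10 members rose, with 338 rises and 10 falls over all precursors. With the block and median-of-ratios scaling, chosen after seeing the data, 2 members (mir-127 and mir-431) rose, with 16 rises and 46 falls in all. The sign-flip test of the mir-127 ratio over same-numbered pairs gave a mean difference of 0.358 (exact p = 0.25, the smallest that 3 pairs allow). The labels give same-numbered libraries nothing in common but the number. The correlations of their deviations from the group means were 0.187, 0.264 and 0.00934 for numbers 1 to 3. Pairs with unlike numbers ran from -0.217 to 0.0479. Control 1 and control 2 each correlated best with the cKO library of the same number, and control 3 did not. Whether the pools were paired cannot be told. Also chosen after seeing the data were the fits of mir-127 that joined median-of-ratios scaling with leaving out a library.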

Other observations

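Outside the 10, the 5 precursors of at least 100 RPKM whose pattern was most like the mean of the 10 were mir-369, mir-411, mir-652, mir-377 and mir-190b. Likeness was Pearson's r over the 6 libraries on log2(RPKM + 1) after median-of-ratios scaling, among 298 candidates, and was 0.988, 0.970, 0.968, 0.966 and 0.964. These values describe 6 libraries of 2 genotypes under 1 scaling and have no test. Each member weighed alike in the mean, also the scarce mir-493, whose scaled RPKM were 23.9, 6.87 and 10.1 in control 1 to 3. Of the 5, mir-369, mir-411 and mir-377 belong to the distal cluster of the same imprinted region, whereas mir-652 and mir-190b are not on the lists for the region. Means of mir-652 were 354 ± 13.1 RPKM (control) and 744 ± 3.99 RPKM (cKO), and those of mir-190b 4226 ± 352 RPKM and 8483 ± 251 RPKM (n = 3 libraries each, SD). Likeness of each member to the mean of the other 9 ran from 0.482 for mir-540 to 0.949 for mir-337, with mir-127 at 0.543. The 5 were picked as the highest of the candidates and the members were not, so the values of the members and of the 5 are not to be compared.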
